A study of Homo sapiens with 6 samples.

Results

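SNAI1, ID2 and THBS1 are genes known to respond to ligands of the transforming growth factor beta (TGF-beta) family. They were followed in ES2, an established human ovarian cancer cell line. They were chosen by gene symbol, and all 3 were found once in each table, among 771 entries with a symbol and 1113 entries in all. The labels give 3 libraries to cells treated with an antisense oligonucleotide (ASO) against RUNX1-IT1, a long non-coding RNA from inside the RUNX1 gene, and 3 to cells treated with a control ASO. ASOs are short synthetic strands that base-pair with an RNA and often lead to its cleavage. All cells were kept in RPMI-1640 medium with fetal bovine serum, and no TGF-beta family ligand is named in the labels. The dose, time and number of oligonucleotides per target are not given in the sources used here, and the study used 1 cell line. The question of the design is how knockdown of RUNX1-IT1 changes expression.

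In this pathway, ligands such as TGF-beta, activins and bone morphogenetic proteins (BMPs) bring together pairs of serine/threonine kinase receptors, which phosphorylate SMAD proteins that enter the nucleus with SMAD4. SNAI1, a zinc finger repressor of the E-cadherin gene, is a classical TGF-beta-induced driver of epithelial-mesenchymal transition (EMT), in which epithelial cells loosen their junctions and become motile. ID2 binds basic helix-loop-helix factors and keeps them off DNA. Its family is induced by BMPs, and in many epithelial cells TGF-beta lowers it. THBS1 encodes thrombospondin 1, a secreted matrix glycoprotein that is induced by TGF-beta and can release TGF-beta from its latent complex.

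All values are CPM, read counts scaled to the reads of the library. The listed entries are strongly selected for differing between the groups compared here: 1112 of 1113 differed at least 2-fold between group means, and the smallest fold was 1.99. An adjusted p of a listed gene is therefore not independent evidence of a change, and a gene that is not listed has no value here that could be assigned to it. Listed entries summed to 3628 to 3894 CPM under the RUNX1-IT1 ASO and 10175 to 11070 CPM under the control ASO. The spacing of low values put the totals at 17100000 to 18700000 reads in RUNX1-IT1 ASO libraries and 17300000 to 21200000 in control ASO libraries. Neither RUNX1-IT1 nor RUNX1 is among the 771 entries with a symbol, so the knockdown itself was not checked. The other 342 entries have no symbol, and a gene called not listed could be among them. Of 16 epithelial ovarian tumour markers, only PAX8 and ESR1 are listed, so the cell type label could not be checked either. PAX8 averaged 2.98 ± 0.602 CPM in RUNX1-IT1 ASO libraries and 7.16 ± 0.733 CPM in control ASO libraries (SD, n = 3 each). No fibroblast or endothelial marker is listed. The 1 listed immune marker, ITGAM, averaged 0.127 ± 0.0792 CPM in RUNX1-IT1 ASO libraries and 1.72 ± 0.113 CPM in control ASO libraries (SD, n = 3 each). The part of other cell types in the results was not tested.

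SNAI1, ID2 and THBS1 were all lower under the RUNX1-IT1 ASO, SNAI1 and ID2 by much more than THBS1. Rescaling libraries to equal listed totals turned the sign for THBS1. Because nearly every listed gene fell, this rescaling centres them by construction, and a sign or call after it is relative to the listed total. SNAI1 was 8.68-fold lower, ID2 10.6-fold lower and THBS1 2.31-fold lower by group means. In limma, all 3 were called lower at a Benjamini-Hochberg adjusted p under 0.05, against 97.5% of all 489 tested genes (named, and averaging 1 CPM or more), so the direction of the members is that of nearly every listed gene. In bulk RNA, fewer expressing cells and less RNA per cell cannot be told apart. The labels do not say whether replicates came from separate cultures, so the p-values reflect the variation among these libraries alone, which may be technical.

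SNAI1 stood at 3.26, 4.79 and 3.40 CPM in replicates 1, 2 and 3 under the RUNX1-IT1 ASO, against 33.4, 31.2 and 34.8 CPM in control ASO replicates 1, 2 and 3. The groups did not overlap, and even the closest pair of libraries, RUNX1-IT1 ASO replicate 2 and control ASO replicate 2, differed 6.52-fold. The means were 3.81 ± 0.843 CPM and 33.1 ± 1.80 CPM (SD, n = 3 each), which leaves 11.5% of the control ASO level. On the log2(CPM + 1) scale, which understates changes of low genes, SNAI1 fell by 2.84 ± 0.12 (SE, limma, adjusted p = 4.5e-10). The low level rested on few reads, since the spacing of values implied 61, 89 and 58 reads of SNAI1 in RUNX1-IT1 ASO libraries and 670, 539 and 738 in control ASO libraries. Replicate 2 was the highest of the RUNX1-IT1 ASO libraries. Its exact Poisson 95% interval of 71.5 to 110 reads overlapped those of replicate 1 (46.7 to 78.4) and replicate 3 (44.04 to 74.98). In GENCODE release 29 on GRCh38, SNAI1 lies on the plus strand of chromosome 20 from 49982999 to 49988886 and has 3 exons. A processed pseudogene, SNAI1P1, on chromosome 2 resembles its mRNA, and how the authors assigned reads that fit both is not given in the sources used here.

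ID2 stood at 1.98, 1.40 and 1.41 CPM in replicates 1, 2 and 3 under the RUNX1-IT1 ASO, against 16.7, 15.6 and 18.5 CPM in control ASO replicates 1, 2 and 3. Every RUNX1-IT1 ASO library lay below every control ASO library, by at least 7.90-fold. The means were 1.59 ± 0.333 CPM and 16.9 ± 1.43 CPM (SD, n = 3 each), or 9.41% of the control ASO level, and ID2 fell by 2.80 ± 0.12 on the log2(CPM + 1) scale (SE, limma, adjusted p = 5.2e-10). ID2 had the fewest reads of the 3 genes, with 37, 26 and 24 implied reads in RUNX1-IT1 ASO libraries and 336, 270 and 392 in control ASO libraries. Replicate 1 was the highest of the RUNX1-IT1 ASO libraries for ID2, whereas replicate 2 was the highest for SNAI1. ID2 lies on the plus strand of chromosome 2 from 8678845 to 8684453. The antisense gene ID2-AS1 overlaps 3019 bases of this span, and if strand was not used in counting, reads of the pair are mixed where they overlap.

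THBS1 stood at 42.9, 40.6 and 40.4 CPM in replicates 1, 2 and 3 under the RUNX1-IT1 ASO, against 100.1, 92.2 and 94.3 CPM in control ASO replicates 1, 2 and 3. The groups were again fully separate, with the closest libraries 2.15-fold apart and the farthest 2.48-fold apart. The means were 41.3 ± 1.43 CPM and 95.6 ± 4.12 CPM (SD, n = 3 each), so 43.2% of the control ASO level was left, and the log2(CPM + 1) value fell by 1.19 ± 0.08 (SE, limma, adjusted p = 1.2e-08). THBS1 was the best counted of the 3 genes, with 803, 755 and 689 implied reads in RUNX1-IT1 ASO libraries and 2010, 1592 and 2002 in control ASO libraries. Its fold lies close to the 2-fold difference that nearly all listed entries exceed. THBS1 lies on the plus strand of chromosome 15 from 39581079 to 39599466, with 22 exons, and shares 11110 bases with FSIP1 on the opposite strand. FSIP1 is not listed.

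**Figure D1:**
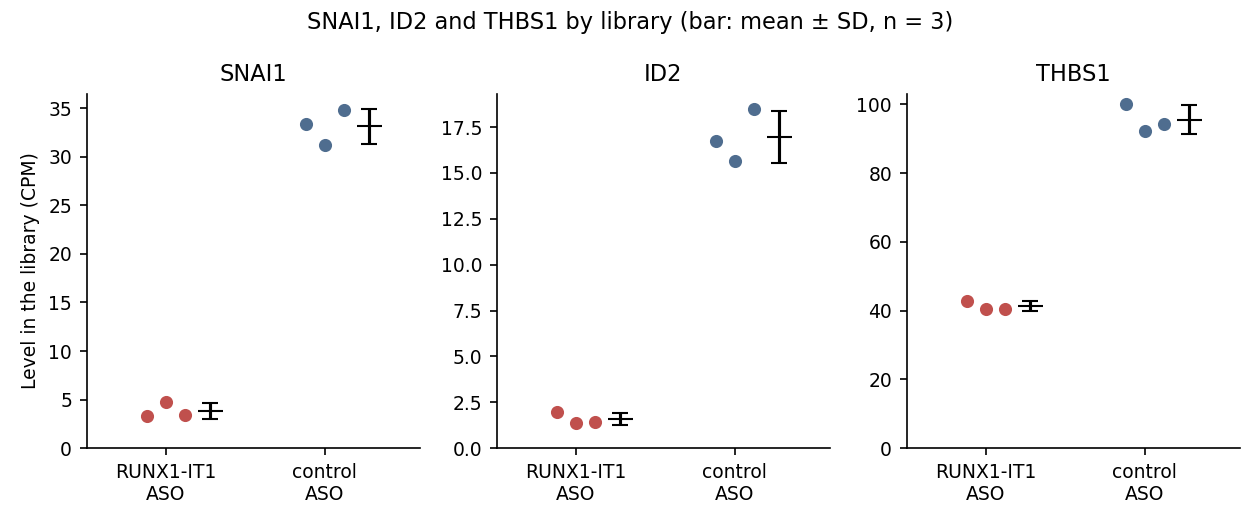
Levels of SNAI1, ID2 and THBS1 in CPM, 1 point per library, with mean ± SD of 3 libraries beside the points and each vertical axis starting at 0. RUNX1-IT1 ASO libraries lie at 3.26 to 4.79, 1.40 to 1.98 and 40.4 to 42.9 CPM, all below the control ASO libraries at 31.2 to 34.8, 15.6 to 18.5 and 92.2 to 100.1 CPM.

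For each gene the groups did not overlap, as for 97.1% of the 489 tested genes in the same direction. An exact two-sided permutation test of each gene over the 6 libraries gave p = 0.1, the smallest value that 3 libraries against 3 can give. The spread between RUNX1-IT1 ASO replicates was 22.1% of the mean for SNAI1, 20.9% for ID2 and 3.46% for THBS1. In control ASO libraries it was 5.43%, 8.44% and 4.31%. For ID2 and THBS1 in RUNX1-IT1 ASO libraries, the SD of 0.333 and 1.43 CPM was close to the 0.295 and 1.51 CPM that counting alone would give. For SNAI1 in these libraries it was 0.843 CPM against 0.457 CPM from counting. In control ASO libraries, where it was 1.80, 1.43 and 4.12 CPM for SNAI1, ID2 and THBS1, counting alone would give 1.30, 0.933 and 2.22 CPM.

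Among all 489 tested genes the median change was -1.11 on the log2(CPM + 1) scale, with quartiles of -1.43 and -0.88. SNAI1 and ID2 had the 4th and 6th largest decreases on that scale. By the fold of group means they ranked 23rd and 14th, and both belonged to the 5.52% of tested genes (27 of 489) that were at least 8-fold lower. This cut lies just under the 8.68-fold of SNAI1, so it adds nothing to the ranks. THBS1 was near the median, 0.08 below it on the log2(CPM + 1) scale and in 206th place, and in 373rd place by fold. In that scale, genes with few reads move less for the same fold, which places a well-expressed gene such as THBS1 higher in the order of decreases than its fold does.

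**Figure D2:**
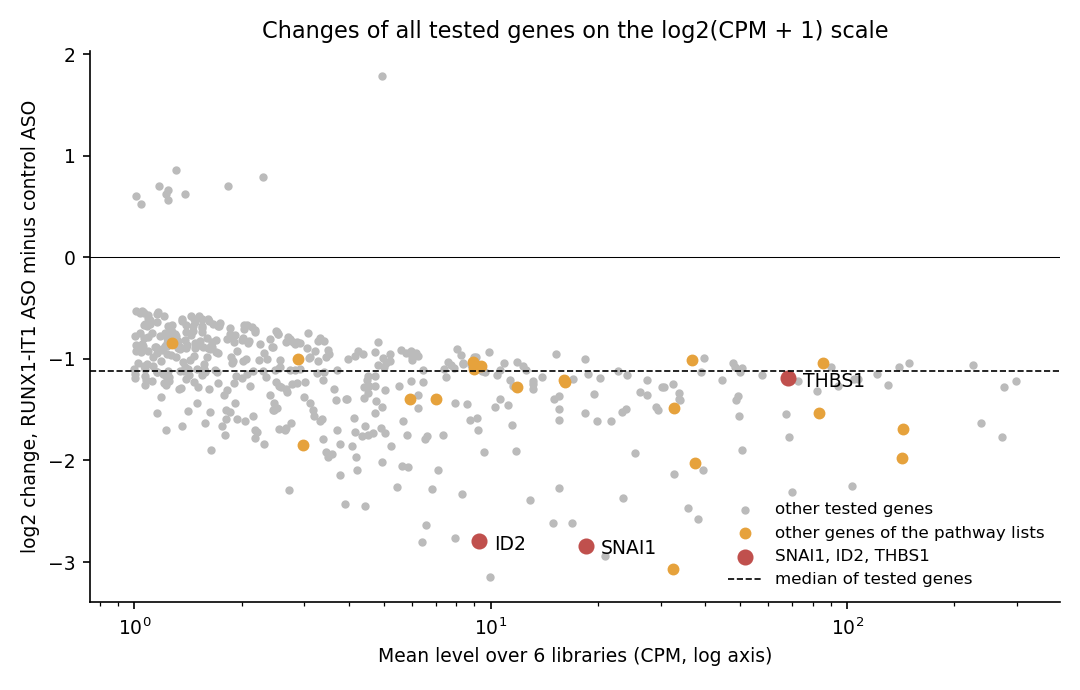
Change of each of the 489 tested genes (RUNX1-IT1 ASO minus control ASO, log2(CPM + 1) scale) against its mean CPM over 6 libraries on a log axis. SNAI1 at -2.84 and ID2 at -2.80 lie near the lower edge, and THBS1 at -1.19 lies next to the dashed median of -1.11, with other genes of the pathway lists in orange.

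Ratios within a library show how the members moved relative to each other and, apart from the pseudocount, do not depend on a common scaling factor. Relative to THBS1, SNAI1 was at 7.60, 11.8 and 8.42% in RUNX1-IT1 ASO replicates 1, 2 and 3, against 33.3, 33.9 and 36.9% in control ASO replicates 1, 2 and 3. ID2 was at 4.61, 3.44 and 3.48% of THBS1 in RUNX1-IT1 ASO libraries and at 16.7, 17.0 and 19.6% in control ASO libraries. For both ratios the highest RUNX1-IT1 ASO library lay below the lowest control ASO library. On the log2(CPM + 1) scale the SNAI1 to THBS1 ratio differed by -1.65 ± 0.16 and the ID2 to THBS1 ratio by -1.60 ± 0.10 (SE). Each gave p = 0.1 in an exact two-sided permutation test, or 0.15 after Benjamini-Hochberg adjustment over 3 ratios, and the design cannot reach p below 0.1.

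SNAI1 stood at 165, 342 and 242% of ID2 in RUNX1-IT1 ASO replicates 1, 2 and 3, against 199, 200 and 188% in control ASO replicates 1, 2 and 3. The groups overlapped, with RUNX1-IT1 ASO libraries on both sides of the control ASO libraries. The difference on the log2(CPM + 1) scale was -0.04 ± 0.22 (SE, exact two-sided permutation p = 0.7, adjusted 0.7), and its sign turned with a smaller pseudocount. This p does not show that SNAI1 and ID2 changed alike. The ratio varied more among RUNX1-IT1 ASO libraries, with an SD of 0.38, than among control ASO libraries, with an SD of 0.04. It rested on fewer implied reads there, 58 to 89 of SNAI1 and 24 to 37 of ID2. Control ASO libraries held 539 to 738 and 270 to 392. The part of counting error in this difference was not tested.

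**Figure D3:**
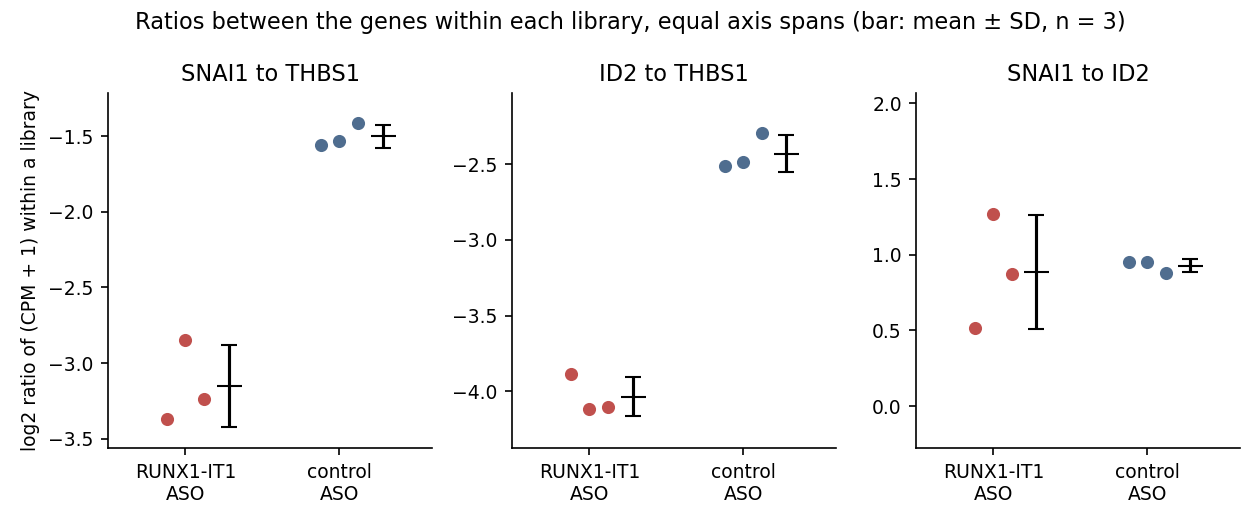
log2 ratios of (CPM + 1) between the genes within each library, 1 point per library, with mean ± SD of 3 libraries and the same span on each vertical axis. The SNAI1 to THBS1 and ID2 to THBS1 ratios are lower in all RUNX1-IT1 ASO libraries, and the SNAI1 to ID2 ratio overlaps between groups, at 0.52 to 1.27 in RUNX1-IT1 ASO libraries and 0.88 to 0.95 in control ASO libraries.

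Levels of different genes can be compared only per transcript length, here CPM per kilobase of the protein-coding transcript in GENCODE release 29. SNAI1 (1686 bases) averaged 2.26 ± 0.4999 CPM per kilobase in RUNX1-IT1 ASO libraries and 19.6 ± 1.07 in control ASO libraries (SD, n = 3 each). THBS1 (7775 bases) averaged 5.31 ± 0.184 CPM per kilobase in RUNX1-IT1 ASO libraries and 12.3 ± 0.530 in control ASO libraries (SD, n = 3 each). The order of these genes therefore differed between groups: THBS1 was above SNAI1 in every RUNX1-IT1 ASO library and below it in every control ASO library. ID2 has protein-coding models of 623 to 2041 bases, which give 2.56 to 0.781 CPM per kilobase in RUNX1-IT1 ASO libraries and 27.2 to 8.30 in control ASO libraries. Its place in the control ASO order depends on the model. With each of these models it lay below THBS1 in RUNX1-IT1 ASO libraries.

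The promoters of ID2 and THBS1 are shown from 250 bases before to 50 bases after the RefSeq start (GRCh38.p14, plus strand, chr2:8681806-8682105 and chr15:39580829-39581128). SNAI1 has no entry in the promoter reference used here, so its promoter was not searched. The ID2 window lies inside the GENCODE span of the gene, which has an earlier annotated start, and its first bases overlap ID2-AS1. Capitals mark every match to the 9 motifs searched on both strands.
ID2: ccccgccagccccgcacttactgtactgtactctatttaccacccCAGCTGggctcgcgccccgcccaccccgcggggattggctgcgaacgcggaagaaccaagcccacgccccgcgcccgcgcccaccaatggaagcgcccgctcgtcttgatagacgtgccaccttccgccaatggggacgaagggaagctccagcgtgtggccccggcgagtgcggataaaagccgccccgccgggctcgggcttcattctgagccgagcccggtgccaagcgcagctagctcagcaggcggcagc
THBS1: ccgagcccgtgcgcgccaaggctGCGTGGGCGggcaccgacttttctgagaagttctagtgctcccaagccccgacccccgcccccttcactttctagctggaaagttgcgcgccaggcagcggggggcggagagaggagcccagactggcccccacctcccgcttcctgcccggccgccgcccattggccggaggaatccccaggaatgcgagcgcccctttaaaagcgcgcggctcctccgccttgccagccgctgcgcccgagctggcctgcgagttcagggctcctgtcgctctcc
Both windows are rich in G and C, at 69% and 70%, against a median of 58.7% over 35116 promoters of the same length, and hold 33 and 29 CpG dinucleotides, against a median of 14. The ID2 window has 1 E-box (CANNTG, the site of helix-loop-helix factors), a motif in 68.7% of all promoters. The THBS1 window has 1 match to the EGR1 site GCGTGGGCG, found in 0.795% of all promoters. Neither window holds the SMAD letters GTCTAGAC (0.202% of all promoters), CAGACA (16.9%) or GGCGCC (19.2%), the Snail E-box CACCTG (20.6%), which is a case of CANNTG, the cAMP response element TGACGTCA (1.85%), the AP-1 site TGANTCA (7.71%) or the TATA letters TATAAA (11.5%). A match is a description of letters and shows no binding. Bases outside these windows were not searched, so a missing match does not show that a gene lacks such sites.

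Beside the 3 members, 21 genes from lists of the TGF-beta family, EMT, helix-loop-helix partners and matrix are listed, of which 19 reached the mean of 1 CPM needed for the test. All 19 were called lower in limma, against 97.5% of the tested genes, although 9 of them turned positive after rescaling to equal listed totals. Of 52 genes on the list of TGF-beta and BMP responsive genes, 17 are listed, the 3 members among them, and all 17 were called lower with a median of -1.28 on the log2(CPM + 1) scale, although 9 turned positive after rescaling. The median over all tested genes was -1.11, and after rescaling it was -0.06. With that median so near 0, positive signs after rescaling were common among all tested genes. The counts of turned signs are therefore not a trait of these lists. The lists were drawn up with earlier results of these data known.

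Of 24 ligands, 2 are listed. GDF15, a stress-induced distant member of the family, averaged 2.81 ± 0.228 CPM in RUNX1-IT1 ASO libraries and 9.07 ± 1.33 CPM in control ASO libraries (SD, n = 3 each), and fell by 1.39 ± 0.12 on the log2(CPM + 1) scale (SE, limma, adjusted p = 2.1e-07), a call lost after rescaling (-0.16, limma, adjusted p = 0.327). INHBE, an activin subunit gene, had 0.262 ± 0.131 CPM in RUNX1-IT1 ASO libraries and 1.09 ± 0.458 CPM in control ASO libraries (SD, n = 3 each), too low for the test. None of 14 receptor genes is listed. Of 12 genes for SMADs and their partners, FOXH1, a forkhead factor that binds SMAD complexes, is the 1 listed, at 0.649 ± 0.558 CPM in RUNX1-IT1 ASO libraries and 1.89 ± 0.570 CPM in control ASO libraries (SD, n = 3 each). Its groups overlapped, although limma called it lower (adjusted p = 0.00183), and after rescaling this call was lost (-0.11, limma, adjusted p = 0.787). Of 25 genes that inhibit or activate the pathway, BAMBI, a decoy receptor lacking the kinase domain, is the 1 listed and was 2.64-fold lower (0.07 on the log2 scale after rescaling), at 1.58 ± 0.192 CPM in RUNX1-IT1 ASO libraries and 4.18 ± 0.420 CPM in control ASO libraries (SD, n = 3 each).

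Among responsive genes that encode transcription factors, ATF3, a stress-induced factor that can join SMAD3 in repressing ID genes, was 9.54-fold lower, a fold between those of SNAI1 and ID2. It stood at 6.16 ± 0.829 CPM in RUNX1-IT1 ASO libraries and 58.8 ± 1.49 CPM in control ASO libraries (SD, n = 3 each). KLF10, also named TGF-beta-inducible early gene, was 3.26-fold lower and JUNB, an AP-1 subunit, 2.94-fold lower, though JUNB lost its call after rescaling. The Notch effectors HES1 and HEY1, themselves basic helix-loop-helix repressors, were 2.48-fold and 2.34-fold lower, and DLX2, a homeobox factor induced by BMPs, was 2.65-fold lower, all with signs that turned after rescaling. HES1 averaged 9.28 ± 1.54 CPM in RUNX1-IT1 ASO libraries and 22.99 ± 1.38 CPM in control ASO libraries (SD, n = 3 each). Of 17 EMT factors, OVOL1, a zinc finger factor that favours the epithelial state, is listed beside SNAI1, at 0.289 ± 0.158 CPM in RUNX1-IT1 ASO libraries and 1.25 ± 0.263 CPM in control ASO libraries (SD, n = 3 each), too low for the test. ZEB and TWIST genes, SNAI2, the other ID genes and all 22 junction and cytoskeleton genes of EMT, E-cadherin and vimentin among them, are not listed.

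Growth arrest genes stand on the responsive list too. CDKN2B, a cyclin-dependent kinase inhibitor that TGF-beta induces through SMADs, was 4.28-fold lower, with 14.2 ± 0.641 CPM in RUNX1-IT1 ASO libraries and 60.5 ± 4.62 CPM in control ASO libraries (SD, n = 3 each). GADD45B, a stress-inducible activator of p38 signalling, was 3.98-fold lower, and CDKN1A, another cyclin-dependent kinase inhibitor, 2.92-fold lower, though CDKN1A lost its call after rescaling. Secreted factors and others had folds close to that of THBS1, and their signs too turned after rescaling. ANGPTL4, an inhibitor of lipoprotein lipase, was 2.46-fold lower, PTHLH, parathyroid hormone-like hormone, 2.21-fold, the cytokine IL11 2.06-fold and the small GTPase RHOB 2.06-fold lower. IL11 averaged 23.9 ± 1.63 CPM in RUNX1-IT1 ASO libraries and 49.3 ± 1.18 CPM in control ASO libraries (SD, n = 3 each).

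THBS1 is the 1 gene listed of 14 thrombospondins and their receptors. Of 39 matrix and matrix turnover genes, a list that does not hold THBS1, 3 are listed, all proteases. MMP10, a stromelysin, was 7.13-fold lower, at 0.730 ± 0.259 CPM in RUNX1-IT1 ASO libraries and 5.21 ± 0.478 CPM in control ASO libraries (SD, n = 3 each). MMP19 was 3.11-fold lower, a call lost after rescaling (-0.12, limma, adjusted p = 0.446), and ADAMTS4, an aggrecan-cleaving protease, was 2.29-fold lower, a sign that turned after rescaling. The collagens of that list and fibronectin are not listed.

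**Figure D4:**
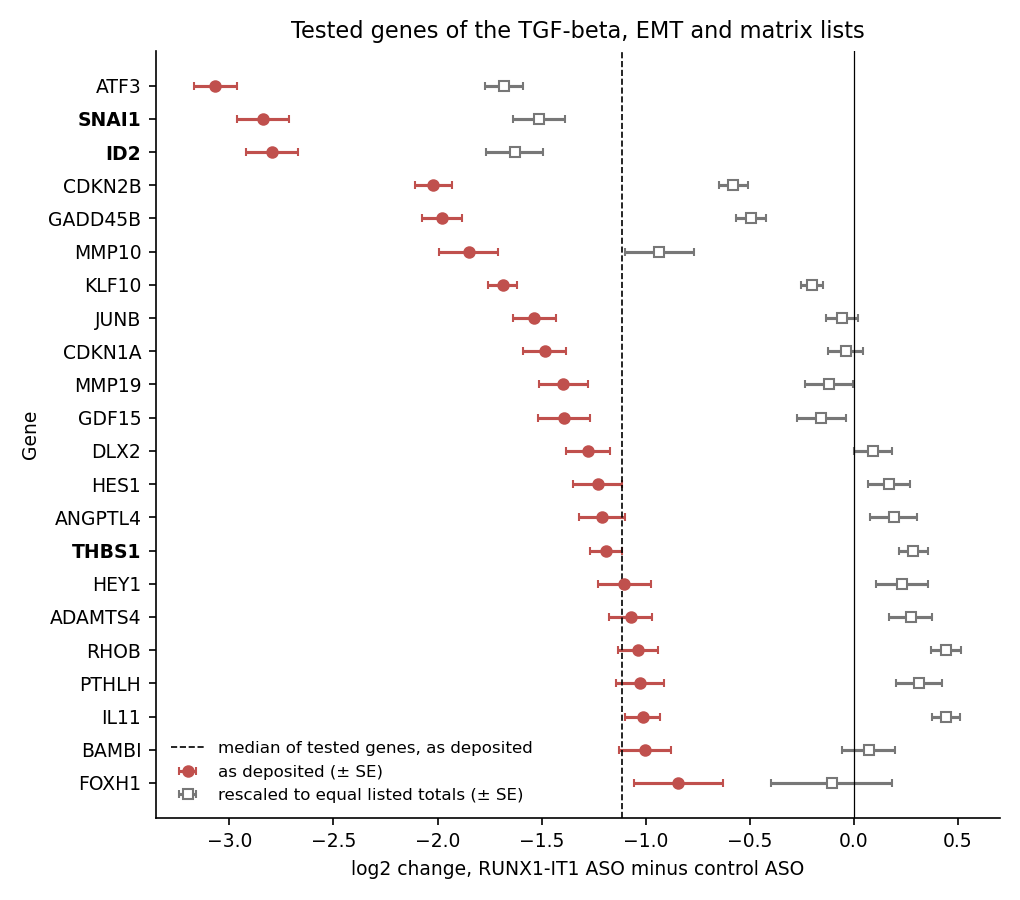
log2 change (RUNX1-IT1 ASO minus control ASO, log2(CPM + 1) scale, ± SE) of the 22 tested genes of the lists, as deposited (filled) and after rescaling libraries to equal listed totals (open), with the median of all tested genes dashed. As deposited, all lie below 0, and after rescaling ATF3, SNAI1 and ID2 stay lowest while THBS1 stands at 0.29.

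When every library was brought to the same listed total, the median of all tested genes moved by 1.05, to -0.06. Because nearly every listed gene fell, this centres them by construction, and values after it are relative to the listed total. SNAI1 then stood at -1.51 ± 0.12 (SE, limma, adjusted p = 8.1e-06) and ID2 at -1.63 ± 0.14 (SE, limma, adjusted p = 9.7e-06), both still called lower, as were 24.1% of the tested genes. THBS1 turned to 0.29 ± 0.07 (SE, limma, adjusted p = 0.00832), among the 8.79% of tested genes called higher. Of the 17 responsive genes, 6 were then called lower (SNAI1, ID2, ATF3, CDKN2B, GADD45B and KLF10), 3 higher (THBS1, IL11 and RHOB) and 8 neither, with a median of 0.07. MMP10 was also still called lower, at -0.93.

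The genes most alike in pattern were taken as the 3 tested genes with the smallest Euclidean distance to a member over 6 libraries, after centring each gene's log2(CPM + 1) values on its mean. For SNAI1 these were TRAF1, ATF3 and ALOXE3, at distances of 0.31 to 0.32, where the median tested gene was at 2.17. ID2 had ARL14 at 0.24, FOSB at 0.32 and PAX8-AS1 at 0.34, against a median of 2.11. SNAI1 and ID2 were 0.54 apart, with ID2 the 8th nearest gene to SNAI1 and SNAI1 the 7th nearest to ID2. THBS1 was nearest to SLC30A1, PSG2 and RGS2, at 0.14 to 0.15, against a median of 0.52. SNAI1 (2.06) and ID2 (1.98) came only 472nd and 469th among its neighbours in the 489 tested genes. The distances follow the change on the log2(CPM + 1) scale, and folds of near neighbours differed: FOSB was 6.43-fold lower beside 10.6-fold for ID2, and PSG2 3.77-fold lower beside 2.31-fold for THBS1. ATF3 was 9.54-fold lower, ARL14 13.7-fold lower and SLC30A1 2.23-fold lower.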

How the data were processed

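RNA from 6 libraries of ES2 cells was analysed, 3 per group by the labels. Per the submitters' processing notes, the tools were FastQC 0.11.9 and fastp 0.22.0, with GRCh38 as the build. For the aligner, counter, annotation, strand setting and gene filter, nothing is given in the sources used here. The authors deposited CPM, a unit read off the numbers themselves. All values above 0 lay within 0.1 step of a whole multiple of 1 step per library, taken as 1 read. The smallest control ASO values lay at 2 to 5 steps, so recovery of whole reads was not claimed for them, and no count test was run. Reads named here are implied ones, and their intervals cover counting error only.

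limma 3.58.1 in R 4.3.3 modelled log2(CPM + 1) by group alone, using a mean-variance trend, for the 489 named genes averaging 1 CPM or more. It was tested on simulated data with most genes unchanged and the others changed in both directions, unlike the genes tested here. Benjamini-Hochberg adjustment covered all 489 tested genes. Entries without a symbol (342) were left out. Exact permutation tests used scipy 1.17.1. The members, lists and naming rule (every listed gene of the lists, and the 3 nearest genes per member) were chosen with earlier results of these data known. Alternatives changed the pseudocount, filter, scaling, trend, genes fitted, replicate block and replicates kept.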

Additional observations from a re-analysis of the deposited data

How the results depend on the processing

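SNAI1 and ID2 kept their direction and their call under all 14 alternatives tried, and THBS1 under 13. Under these 13, SNAI1, ID2 and THBS1 stood at -3.10 to -2.76, -3.35 to -2.73 and -1.22 to -1.16 on the log2 scale. Rescaling to equal listed totals brought SNAI1 to -1.51 and ID2 to -1.63 and turned THBS1 to 0.29. It also turned ADAMTS4 (0.27), ANGPTL4 (0.19), BAMBI (0.0714), DLX2 (0.0916), HES1 (0.17), HEY1 (0.23), IL11 (0.44), PTHLH (0.31), RHOB (0.44), SLC30A1 (0.33), RGS2 (0.13) and PAX8 (0.19), and took the call from CDKN1A, ESR1, FOXH1, GDF15, JUNB, MMP19 and PSG2, which kept their sign. The SNAI1 to ID2 ratio difference turned to 0.24 and 0.0890 with pseudocounts of 0.1 and 0.5 and to 0.12 after rescaling. Leaving out 1 library at a time gave -0.24 to 0.14 for it, the highest without RUNX1-IT1 ASO replicate 1, -1.80 to -1.54 for SNAI1 to THBS1 and -1.68 to -1.54 for ID2 to THBS1. Genes called lower and higher in limma numbered 750 and 19 of 771 with no filter, and 118 and 43 of 489 after rescaling. With a mean of at least 5 CPM they numbered 165 and 0, so all 165 genes tested were called lower. Fitting entries without a symbol too, still averaging 1 CPM or more, gave 649 and 20 of 670. These counts follow the genes tested and the scaling. A replicate block leaves the changes of SNAI1, ID2 and THBS1 (-2.84, -2.80 and -1.19) the same by construction in this balanced design, and their adjusted p-values were 6.3e-09, 6.3e-09 and 8.7e-08 (limma). Same-numbered libraries deviated with correlations of -0.24, -0.10 and -0.02 over 489 genes. With 3 libraries per group this cannot show whether the samples were paired, and the labels do not say. DESeq2 was not run, since the values are not counts. Depth limits ID2, at 24 to 37 implied reads in RUNX1-IT1 ASO libraries.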
